A study of Mus musculus with 4 samples.

Results

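The Iroquois (Irx) homeobox family has 6 members in the mouse, Irx1 to Irx6, and all 6 were taken by symbol from the 21828 genes analyzed. The members lie in a pair of clusters, IrxA with Irx1, Irx2 and Irx4 on chromosome 13 and IrxB with Irx3, Irx5 and Irx6 on chromosome 8. Retinal cells of transgenic pHes1-EGFP mice were sorted at postnatal day 1 (P1) and postnatal day 4 (P4), and RNA-seq was performed on EGFP-positive cells (pHes1_EPC) and EGFP-negative cells (pHes1_ENC). Each of the 4 groups has 1 library, and the labels give the strain FVB/N and no treatment for all of them. All groups carry the same transgene, a Hes1 promoter that drives a destabilized EGFP, so the fractions differ by the activity of this promoter and not by genotype. How many mice went into a library is not given in the sources used here. EGFP itself was not measured.

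Iroquois proteins are transcription factors with a homeodomain of the TALE class, in which extra amino acids lengthen a loop between helices, and with a short Iro box that is particular to the family. In vertebrates they pattern the neural plate, the heart and the limb. In the retina, Irx5 is known for its need in some cone bipolar cells, and Irx6 for its part in the identity of one kind of cone bipolar cell. The sorting addressed which genes set Müller glia and late progenitors, in which Hes1 is active, apart from the other retinal cells.

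The IrxB genes were high in pHes1_EPC at both ages, and the IrxA genes were low in every library. Irx5 was the most abundant member in every library. Its level is a gene FPKM, which scales reads to the length of the transcript and the size of the library, as deposited. It was 66.2 FPKM in pHes1_EPC and 13.4 FPKM in pHes1_ENC at P1, and 59.3 FPKM and 2.67 FPKM at P4. Irx6 and Irx3 followed at 10.9 and 6.27 FPKM in P1 pHes1_EPC. No IrxA gene reached 1 FPKM in any library. With 1 library in each group there is no replicate check, so differences are descriptions with no test. The 95% interval that Cufflinks gives for each value covers counting error in 1 library only, not the spread between mice or sorts. Age and library cannot be told apart.

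The sequence of the homeobox bears on how these values can be read, because reads of 36 bases were counted and the members are alike there. In the window of 63 codons where the 6 coding sequences are most alike, codons 116 to 178 of Irx5, the encoded residues of any pair were 92.1% to 100% identical, and their bases 86.8% to 92.6%. Irx2 and Irx5 encode the same 63 residues in this window, and Irx1 and Irx3 share 62, so these close partners lie in different clusters. Within it, a stretch of 90 bases encodes the same 30 residues in all members. It is shown from the NCBI37/mm9 transcripts of GENCODE, with bases that differ from Irx5 in capitals.
Irx5: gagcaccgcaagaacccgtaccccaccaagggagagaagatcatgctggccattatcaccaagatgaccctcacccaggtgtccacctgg
Irx2: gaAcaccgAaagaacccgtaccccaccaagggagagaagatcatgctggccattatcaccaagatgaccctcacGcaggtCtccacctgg
Irx6: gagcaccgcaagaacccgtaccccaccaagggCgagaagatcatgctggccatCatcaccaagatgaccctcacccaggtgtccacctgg
Irx3: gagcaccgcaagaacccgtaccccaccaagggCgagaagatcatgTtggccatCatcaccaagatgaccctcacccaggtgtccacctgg
Irx4: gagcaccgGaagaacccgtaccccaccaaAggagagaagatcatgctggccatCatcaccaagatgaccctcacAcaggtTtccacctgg
Irx1: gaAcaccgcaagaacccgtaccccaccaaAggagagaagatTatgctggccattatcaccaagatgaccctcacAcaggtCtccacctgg
Irx2 and Irx5 share an unbroken run of 65 bases here, which holds 30 words of 36 bases that both transcripts contain. Irx3 shares 65 words with Irx6 and 18 with Irx5, Irx4 shares 6 with Irx6, Irx5 shares 3 with Irx6, and Irx1 shares none with any member. No word was shared with a coding transcript of a gene outside the family. These words are 1.16% of those in Irx2, 3.46% in Irx3, 2.03% in Irx5, 2.13% in Irx6 and 0.234% in Irx4. The aligner was allowed to place a read at up to 50 positions. The reads themselves were not used here.

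Irx5, required for some cone bipolar cells to mature, lies at chr8:94881695-94885355 (NCBI37/mm9, plus strand) in 3 exons. Its FPKM was 13.4 (interval 11.6 to 14.1) in pHes1_ENC and 66.2 (59 to 64.2) in pHes1_EPC at P1, and 2.67 (2.12 to 3.19) in pHes1_ENC and 59.3 (52.8 to 58.4) in pHes1_EPC at P4. Both pHes1_EPC libraries were far above both pHes1_ENC libraries, and the deposited FPKM lay above its own interval in the pHes1_EPC pair, as it lies outside its interval on 9.06% to 10.4% of all lines. The level was 4.94 times higher in pHes1_EPC at P1, with a range of 4.18 to 5.55 when the interval bounds are divided, and 22.2 times higher at P4, with a range of 16.6 to 27.5. On the log2(FPKM + 1) scale, which understates ratios of low genes, these differences were 2.22 and 4.04. They ranked 96 and 44 among the differences of the 21828 genes, from the highest in pHes1_EPC down. The wider gap at P4 came with a level in pHes1_ENC that was 0.199 times that at P1 (0.151 to 0.276), while the level in pHes1_EPC was 0.896 times that at P1 (0.823 to 0.991).

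Irx6, a factor of cone bipolar identity, lies at chr8:95198301-95203979 (plus strand, 6 exons). Its FPKM was 1.4 (1.05 to 1.74) in pHes1_ENC and 10.9 (9.34 to 11.4) in pHes1_EPC at P1, and 0.875 (0.611 to 1.14) in pHes1_ENC and 13.3 (11.5 to 14) in pHes1_EPC at P4. The fractions did not overlap at either age. The ratio of pHes1_EPC to pHes1_ENC was 7.79 (5.36 to 10.8) at P1 and 15.2 (10.1 to 22.9) at P4. Its differences of 2.31 and 2.93 on the log2(FPKM + 1) scale ranked 68 and 218. Irx6 had the largest P1 ratio of the 6 members. Between the ages it was the member whose level in pHes1_EPC was higher at P4, by 1.22 times (1 to 1.49), a log2(FPKM + 1) difference of 0.27 that became -0.04 when the FPKM were rescaled to the same total. In pHes1_ENC its P4 interval overlapped that of P1.

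Irx3, a member active in early neural and limb patterning, lies at chr8:94322424-94325273 (minus strand, 4 exons). Its FPKM was 1.96 (1.47 to 2.44) in pHes1_ENC and 6.27 (5.12 to 6.83) in pHes1_EPC at P1, and 0.403 (0.229 to 0.573) in pHes1_ENC and 5.12 (4.14 to 5.71) in pHes1_EPC at P4. The fractions were again apart at both ages. The ratio was 3.2 (2.1 to 4.65) at P1 and 12.7 (7.22 to 24.9) at P4. Its differences were 1.30 and 2.13 on the log2(FPKM + 1) scale. In pHes1_ENC the level at P4 was 0.205 times that at P1 (0.0939 to 0.39), much like Irx5, and in pHes1_EPC the intervals of the ages overlapped at a ratio of 0.818 (0.607 to 1.12). A noncoding gene, D230002A01Rik, overlaps Irx3 on the opposite strand at chr8:94324314-94331438 and has no line of its own in the tables. The protocol names no step that marks the strand, so reads of the pair cannot be told apart.

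Irx3 and Irx5 were also genes whose histone marks the study examined by ChIP-qPCR, picked from genes already above 2-fold in these libraries, so that their ratios exceed 2 follows from the choice. Those measurements were not used here.

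Irx2 lies at chr13:72766426-72771642 (plus strand, 5 exons) and is the closest partner of Irx5 in the homeodomain. Its FPKM was 0.346 (0.207 to 0.473) in pHes1_ENC and 0.978 (0.712 to 1.24) in pHes1_EPC at P1, and 0.0434 (0 to 0.0957) in pHes1_ENC and 0.383 (0.234 to 0.532) in pHes1_EPC at P4. The intervals of the fractions did not overlap at either age, with ratios of 2.83 (1.51 to 5.99) at P1 and 8.82 at P4. Its differences on the log2(FPKM + 1) scale were 0.56 and 0.41. If each read from the 30 shared words was divided evenly between Irx2 and Irx5, reads of Irx5 origin would add 0.0776, 0.383, 0.0155 and 0.344 FPKM to Irx2 in the 4 libraries, in the order of the values just given. Those amounts are 22.4%, 39.2%, 35.6% and 89.7% of the Irx2 values, so in P4 pHes1_EPC nearly the whole Irx2 value has the size of what Irx5 would supply. Without them the Irx2 ratio would be 2.22 at P1 and 1.41 at P4, the latter of 0.0395 to 0.028 FPKM. How reads were placed was not tested.

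The same calculation moved the other detected members less. Other members would supply 3.5% to 7.86% of the Irx3 value, 0.502% to 1.64% of the Irx6 value and at most 0.0785% of the Irx5 value, and the ratios left would be 3.1 and 12.4 for Irx3, 7.87 and 15.2 for Irx6, and 4.95 and 22.2 for Irx5, at P1 and P4. The IrxB differences therefore keep their size under this calculation.

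Irx4, known for its role in the ventricular wall of the heart and in retinal ganglion cell axons, lies at chr13:73397945-73407068 (plus strand, 6 exons). Its FPKM was 0.174 (0.0839 to 0.266) in pHes1_ENC and 0.262 (0.147 to 0.366) in pHes1_EPC at P1, and 0.00819 (0 to 0.0302) in pHes1_ENC and 0.0294 (0 to 0.074) in pHes1_EPC at P4. The fractions overlapped at both ages, and the P1 level was above the P4 level in each fraction, with P4 to P1 ratios of 0.0469 in pHes1_ENC and 0.112 in pHes1_EPC. Shared words with Irx6 would supply 53% of the value in P4 pHes1_EPC and 4.87% of that in P1 pHes1_EPC.

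Irx1, at chr13:72095680-72101171 (minus strand, 4 exons), was not separable from 0 in any library. It had 0.0196 FPKM in P1 pHes1_ENC, 0.041 in P1 pHes1_EPC and 0.0207 in P4 pHes1_EPC, each with an interval that reached 0, and it was listed at 0 in P4 pHes1_ENC. It is therefore not detectable at this depth, and its differences of 0.03 at each age describe no separation.

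**Figure D1:**
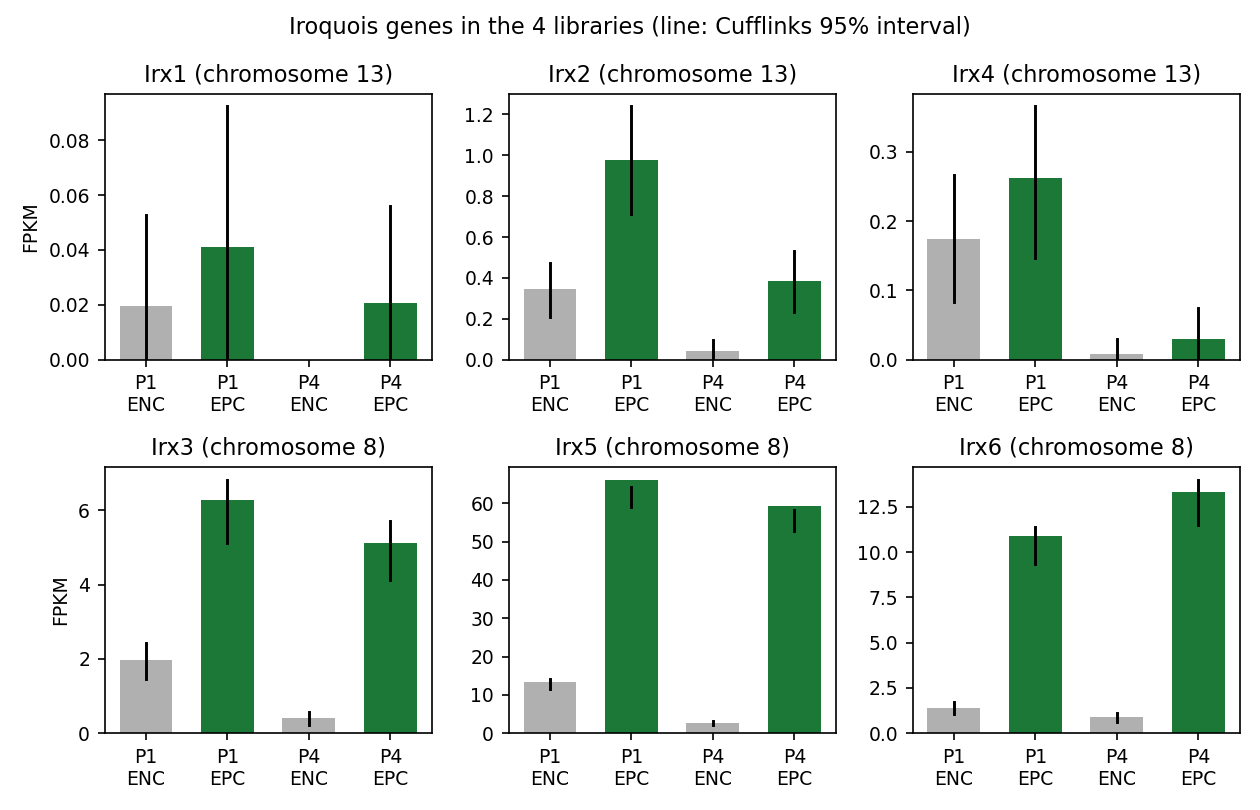
FPKM (vertical axis, from 0, a scale of its own in each panel) of the 6 Iroquois genes in the 4 libraries, with pHes1_ENC in grey and pHes1_EPC in green; a bar is 1 library and the black line its Cufflinks 95% interval. In the lower row the green bars stand clear of the grey ones at both ages, with Irx5 at 66.2 and 59.3 FPKM, and in the upper row no bar reaches 1 FPKM.

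The order of the members by FPKM, which is per length, was the same at the top in all libraries. In P1 pHes1_EPC it ran Irx5, Irx6, Irx3, Irx2, Irx4 and Irx1, and no neighbours in that order had overlapping intervals. In P4 pHes1_EPC the order was the same, and Irx4 and Irx1 overlapped. In P1 pHes1_ENC Irx3 stood just above Irx6 and their intervals overlapped, as did those of Irx2 and Irx4. In P4 pHes1_ENC Irx2, Irx4 and Irx1 could not be told apart. Irx5 made up 77.4% of the summed family FPKM in pHes1_ENC and 78.2% in pHes1_EPC at P1, and 66.7% and 75.8% at P4, so the family sum mostly follows it.

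Summed over the family, the level was 17.3 FPKM in pHes1_ENC and 84.6 in pHes1_EPC at P1, and 4 and 78.2 FPKM at P4. The pHes1_EPC sum was thus 4.9 times the pHes1_ENC sum at P1 and 19.6 times at P4. Between P1 and P4 the sum went to 0.924 times its level in pHes1_EPC and to 0.231 times in pHes1_ENC, and these sums are mostly Irx5. The IrxA sum alone went to 0.338 times in pHes1_EPC and 0.0956 times in pHes1_ENC. These P4 sums were 0.433 and 0.0516 FPKM, and in P4 pHes1_ENC the interval of every IrxA gene reached 0. In P4 pHes1_EPC the sum was mostly Irx2 at 0.383 FPKM, of which Irx5 would supply 89.7% by the calculation above. The IrxA ratios are therefore not a reliable contrast between the fractions. The Irx5 difference between the ages in pHes1_EPC was -0.16 on the log2(FPKM + 1) scale as deposited, -0.49 after rescaling to equal totals, -0.33 after median-of-ratios scaling and -0.46 after quantile normalization. In these bulk samples fewer cells of a type and less RNA per cell cannot be told apart.

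Against all genes, 3 of the 6 members were above 2-fold in pHes1_EPC at P1, a log2(FPKM + 1) difference above 1, where 6.1% of the 21828 genes were higher and 6.79% lower. The same 3 members, Irx3, Irx5 and Irx6, were above 2-fold at P4, where 9.85% of all genes were higher and 5.42% lower. No member was more than 2-fold lower in pHes1_EPC at either age. A gene under 1 FPKM in both libraries cannot pass 2-fold on this scale, which fixes the outcome for the IrxA genes. Among genes with at least 1 FPKM in a library of the contrast, 1331 of 12557 were higher at P1 and 2150 of 12390 at P4. With a pseudocount of 0.1 Irx2 also passed at 1.27 and 1.75. The P4 background depends on scaling, with 2150 genes higher and 1184 lower as deposited, 1535 and 1668 after rescaling to the same total, 1698 and 1497 after median-of-ratios scaling, and 1541 and 1552 after quantile normalization. The median P4 difference of the 12941 genes with at least 1 FPKM in any of the 4 libraries moved accordingly from 0.15 to -0.09, -0.02 and -0.03. The 3 IrxB members were above 2-fold in pHes1_EPC under each of these scalings. The interval in pHes1_EPC lay wholly above that in pHes1_ENC for Irx2, Irx3, Irx5 and Irx6 at P1, where this held for 22.1% of all genes, and for the same 4 members at P4, where it held for 28.3%. For Irx2, these intervals and the values with a pseudocount of 0.1 make no allowance for reads shared with Irx5. By the calculation above, Irx5 would supply 39.2% of the Irx2 value in P1 pHes1_EPC and 89.7% in P4 pHes1_EPC. The median difference of the 6 members was 0.93 at P1 and 1.27 at P4, beside 0.00 over all genes at each age. By cluster the medians were 2.22 and 2.93 for IrxB and 0.10 and 0.03 for IrxA.

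**Figure D2:**
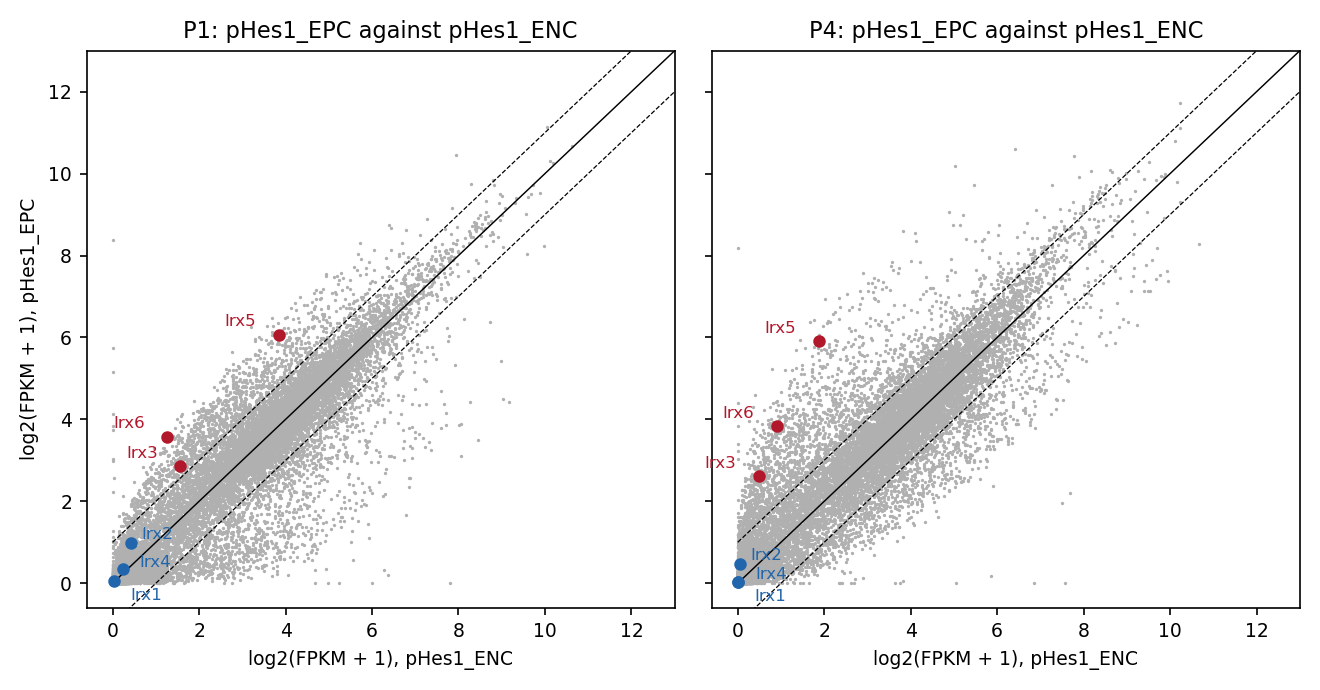
Levels of all 21828 genes on the log2(FPKM + 1) scale in pHes1_ENC (horizontal axis) and pHes1_EPC (vertical axis) at P1 (left) and P4 (right), with IrxB genes in red and IrxA genes in blue; the solid line marks equal levels and the dashed lines a 2-fold difference. The 3 red points lie above the upper dashed line at both ages, and Irx5 moves left from P1 to P4 as its pHes1_ENC level drops from 13.4 to 2.67 FPKM. The blue points stay in the lower left corner.

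Between the ages, Irx3 and Irx5 were more than 2-fold lower at P4 than at P1 in pHes1_ENC, with log2(FPKM + 1) differences of -1.08 and -1.97, while 5.94% of all genes were lower and 2.77% higher in that contrast. After quantile normalization Irx3 was at -0.77, inside 2-fold. In pHes1_EPC no member passed 2-fold, where 4.17% of all genes were higher at P4 and 2.57% lower. For the IrxA genes, under 1 FPKM throughout, this too is fixed by the scale. With a pseudocount of 0.1, Irx2 passed at -1.16 in pHes1_EPC and -1.64 in pHes1_ENC, and Irx4 at -1.48 and -1.34. The median over the 6 members was -0.36 in pHes1_ENC and -0.20 in pHes1_EPC, and the all-gene median was 0.00 in each.

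Other genes of the 2 neighbourhoods were described in the same way. IrxB spans 882 kb and its members are 556 and 313 kb apart. Of 18 other genes within 1 Mb of it, 10 had at least 1 FPKM in a library. Of these 10, 1 was above 2-fold in pHes1_EPC at each age, and 3 at P1 and 2 at P4 were below. Among all genes with at least 1 FPKM in a library of the contrast, 1331 of 12557 were above and 1483 below at P1. At P4, 2150 of 12390 were above and 1184 below, so 1 of 10 does not exceed the share of all such genes. The neighbour above 2-fold was 4933436C20Rik, a noncoding RNA gene that RefSeq also names Crnde and that lies 1675 bases before Irx5. Its FPKM was 4.65 in pHes1_ENC and 16.9 in pHes1_EPC at P1, and 1.02 in pHes1_ENC and 12.7 in pHes1_EPC at P4, which gives ratios of 3.62 (2.41 to 4.9) and 12.4 (6.8 to 20.9). Its values were highest and lowest in the same libraries as those of Irx5.

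The protein-coding genes on either side differed from the cluster. Fto, an RNA demethylase gene 130 kb from Irx3, had differences of 0.13 at P1 and 0.06 at P4 on the log2(FPKM + 1) scale, and Rpgrip1l, a cilium gene beyond it, had 0.29 and -0.33. On the side of Irx6, Mmp2, a secreted protease gene 147 kb away, had -2.99 and -0.84. Lpcat2, a lipid acyltransferase gene, had -2.56 and -1.56, and Slc6a2, the noradrenaline transporter gene, had -2.04 and -2.03. The median of the 10 neighbours was -0.24 at P1 and -0.54 at P4. Chd9, a chromatin remodeler gene at the far end beyond Irx3, had -0.51 and -0.76. The genes above 2-fold in pHes1_EPC within this window thus lay between Irx3 and Irx6, those included.

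IrxA spans 1311 kb, with gaps of 665 and 626 kb. Of its 20 neighbours within 1 Mb, 10 had at least 1 FPKM, with medians of 0.13 at P1 and 0.49 at P4. Of these 10, 2 were above 2-fold in pHes1_EPC and 1 below at P1, and 3 above and 1 below at P4. Among all genes with at least 1 FPKM in a library of the contrast, 1331 of 12557 were above at P1 and 2150 of 12390 at P4. Slc12a7, a potassium and chloride cotransporter gene, and Trip13, an ATPase gene of meiosis and the spindle checkpoint, were above 2-fold in pHes1_EPC at both ages, at 1.12 and 1.30 and at 1.53 and 1.60. Mrpl36, a mitochondrial ribosomal protein gene, was above at P4 with 1.46. In the other direction, Tppp, a tubulin-binding protein gene, was at -1.09 at P1, and Lpcat1, a lipid acyltransferase gene, at -1.44 at P4. The nearest gene to Irx2, the noncoding D430050G20, which lies 413 bases before it, did not exceed 0.00885 FPKM in any library.

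**Figure D3:**
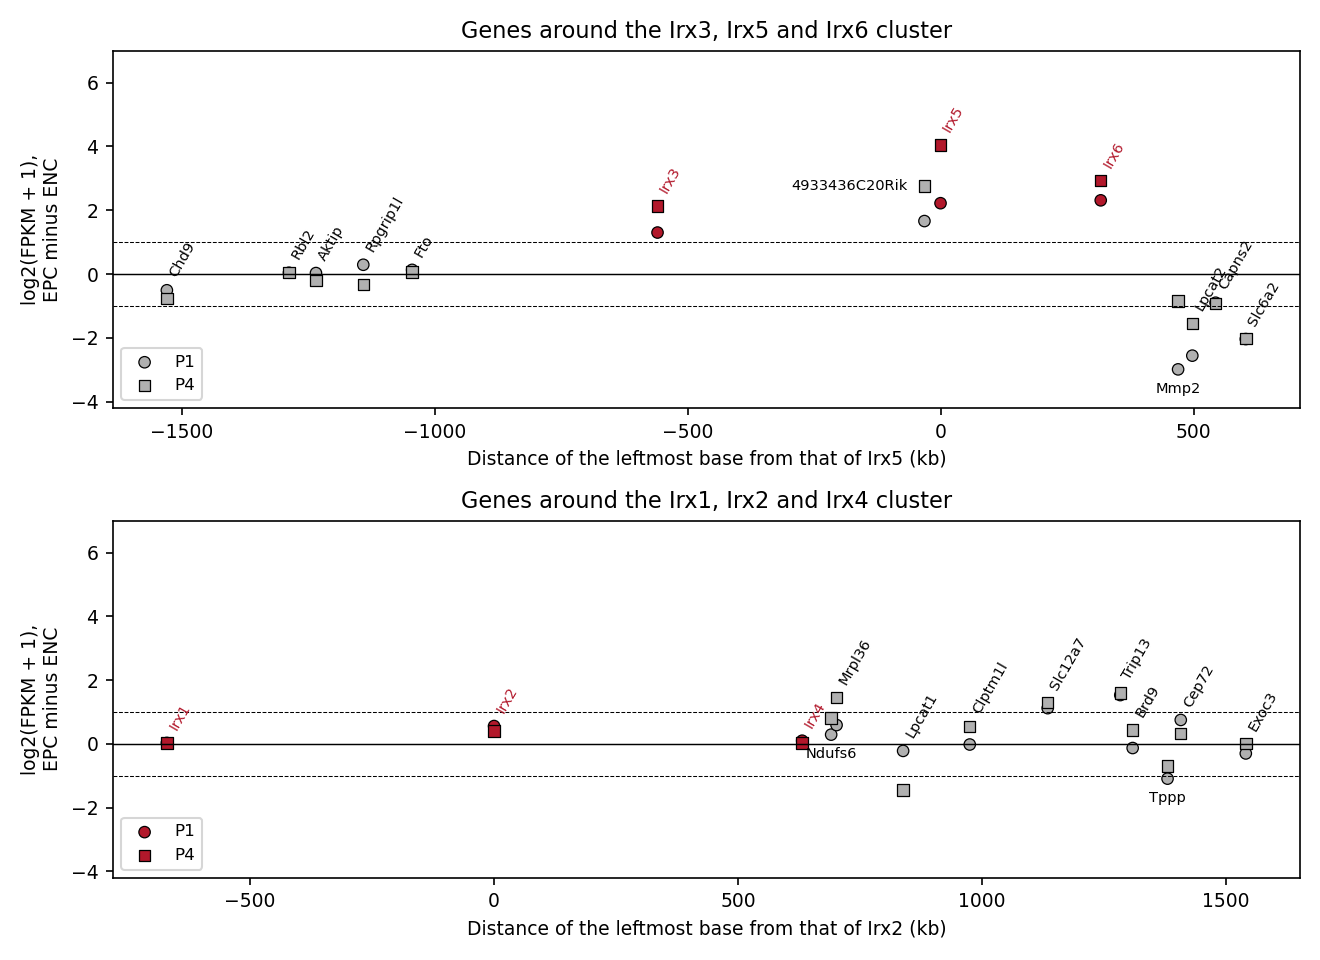
Difference between the fractions on the log2(FPKM + 1) scale, pHes1_EPC minus pHes1_ENC, against the distance in kb from Irx5 (top) or Irx2 (bottom) for Iroquois genes (red) and neighbours with at least 1 FPKM (grey) within 1 Mb of a cluster; circles are P1, squares P4, and dashed lines mark 2-fold. In the top panel Irx3, 4933436C20Rik, Irx5 and Irx6 lie above the upper dashed line at both ages, and Lpcat2 and Slc6a2 lie below the lower one. In the bottom panel the 3 Iroquois genes lie between 0 and the upper dashed line.

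RefSeq promoters (GRCm38.p6) were matched for 3 of the 6 members, Irx2, Irx3 and Irx4, and not for Irx1, Irx5 and Irx6. The bases upstream of the start are printed for Irx3 and Irx2, the members with a matched promoter whose intervals were apart between the fractions. Capitals mark matches on either strand to TGGGAA, the core bound by RBPJ, the transcription factor of Notch signaling, and to CACNAG, the N-box bound by Hes proteins. These motifs do not overlap one another here.
Irx3, chr8:91801655-91801904, minus strand: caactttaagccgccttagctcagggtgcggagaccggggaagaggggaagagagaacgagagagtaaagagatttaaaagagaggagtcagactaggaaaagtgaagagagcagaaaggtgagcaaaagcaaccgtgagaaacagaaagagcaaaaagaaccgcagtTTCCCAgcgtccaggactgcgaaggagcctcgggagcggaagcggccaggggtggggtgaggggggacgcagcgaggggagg
Irx2, chr13:72628570-72628819, plus strand: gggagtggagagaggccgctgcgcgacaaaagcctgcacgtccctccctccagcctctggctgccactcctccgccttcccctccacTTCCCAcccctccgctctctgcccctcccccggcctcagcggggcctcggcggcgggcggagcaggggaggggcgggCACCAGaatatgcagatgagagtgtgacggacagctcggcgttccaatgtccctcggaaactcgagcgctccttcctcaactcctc
The RBPJ core was found in these letters 1 time each in Irx3 and Irx2 and not in Irx4, and 21.6% of 32851 promoters hold it. The N-box was found in Irx2 alone of the 3 and is held by 36.7% of promoters. The class C sequence CACGNG, also bound by Hes proteins, was in none of the 3 and in 23.5% of all. The windows held 13 CpG in Irx3, 19 in Irx2 and 22 in Irx4, beside a median of 6. A match describes the letters only and is no evidence of binding.

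The genes whose pattern over the 4 libraries was most like a member were found by the distance between log2(FPKM + 1) profiles, each centred on its own mean, among 12940 genes with at least 1 FPKM in a library. With 4 values for each gene this is a description. Nearest to Irx5 were Espn, which encodes an actin bundling protein, at a distance of 0.08, Id2, an inhibitor of bHLH factors, at 0.13, and Col23a1, a collagen gene, at 0.14. Hes1, whose promoter drives the EGFP used for sorting, ranked 14 of 12940 at 0.35 from Irx5. It was farther from the other IrxB members, ranking 748 at 1.44 from Irx6 and 6288 at 1.87 from Irx3. Hes1 itself had 16.6 FPKM in pHes1_ENC and 105 in pHes1_EPC at P1, and 3.59 and 93.5 at P4, so like Irx5 it was near its P1 level in pHes1_EPC and lower in pHes1_ENC. Nearest to Irx3 were Ttc23, Nlgn1, a synaptic adhesion gene, and H2afz, a histone variant gene, at 0.08 to 0.11. This nearness holds on the log2(FPKM + 1) scale and not for FPKM ratios. At P4 the ratio of pHes1_EPC to pHes1_ENC was 12.7 (7.22 to 24.9) for Irx3 and 7.43 (5.26 to 11.2) for Ttc23. It was 4.62 (4.08 to 5.26) for Nlgn1 and 4.27 (3.86 to 4.6) for H2afz. Nearest to Irx6 were Ctsc, a lysosomal protease gene, Cxcl16, a chemokine gene, and Pdgfc, a growth factor gene, at 0.16 to 0.21. The IrxB members were farther from one another, at 1.28 for Irx5 and Irx6, 1.56 for Irx3 and Irx5, and 1.11 for Irx3 and Irx6. The distance uses the size of the differences, which sets these 3 members apart although all were higher in pHes1_EPC. That size is taken on the log2(FPKM + 1) scale, which shrinks the differences of low genes such as Irx3. Without the added 1, the log2 change between the ages in pHes1_ENC was -2.28 for Irx3, -2.33 for Irx5 and -0.68 for Irx6. Distances and ranks, that of Hes1 from Irx3 included, were not computed on that scale. Irx1, Irx2 and Irx4 were not compared, being below 1 FPKM in all libraries.

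Other homeobox genes of the TALE class, which include cofactors that bind DNA with Hox proteins (Meis and Pbx genes) and repressors (Tgif genes), were mixed in direction. Of 12, none was above 2-fold in pHes1_EPC at P1 and 2 were below, beside 6.1% and 6.79% of all genes. At P4, 5 were above and 2 below, beside 9.85% and 5.42% of all genes. Their median difference was -0.15 at P1 and -0.26 at P4. Meis2 had the largest difference of the 12 at P1, with 71 FPKM in pHes1_ENC and 4.51 in pHes1_EPC at P1, and 48 and 12.8 at P4, so it was 15.8 times higher in pHes1_ENC at P1 and 3.75 times at P4. Tgif1 had 14.7, 29.8, 9.56 and 50.1 FPKM in the same order, with differences of 0.98 and 2.27. Tgif2, Mkx, Pknox2 and Pbx4 were also above 2-fold at P4, at 1.84, 1.47, 1.47 and 1.24. At P1 their differences were 0.72, 0.48, 0.62 and 0.35, so these genes and Tgif1 were higher in pHes1_EPC at both ages. Between the ages, 3 of the 12 were more than 2-fold lower at P4 in pHes1_ENC (Pbx4, Pknox2 and Tgif2), beside 5.94% of all genes. In pHes1_EPC, Meis2 and Pbx3 passed 2-fold, with differences of 1.33 and -1.02.

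**Figure D4:**
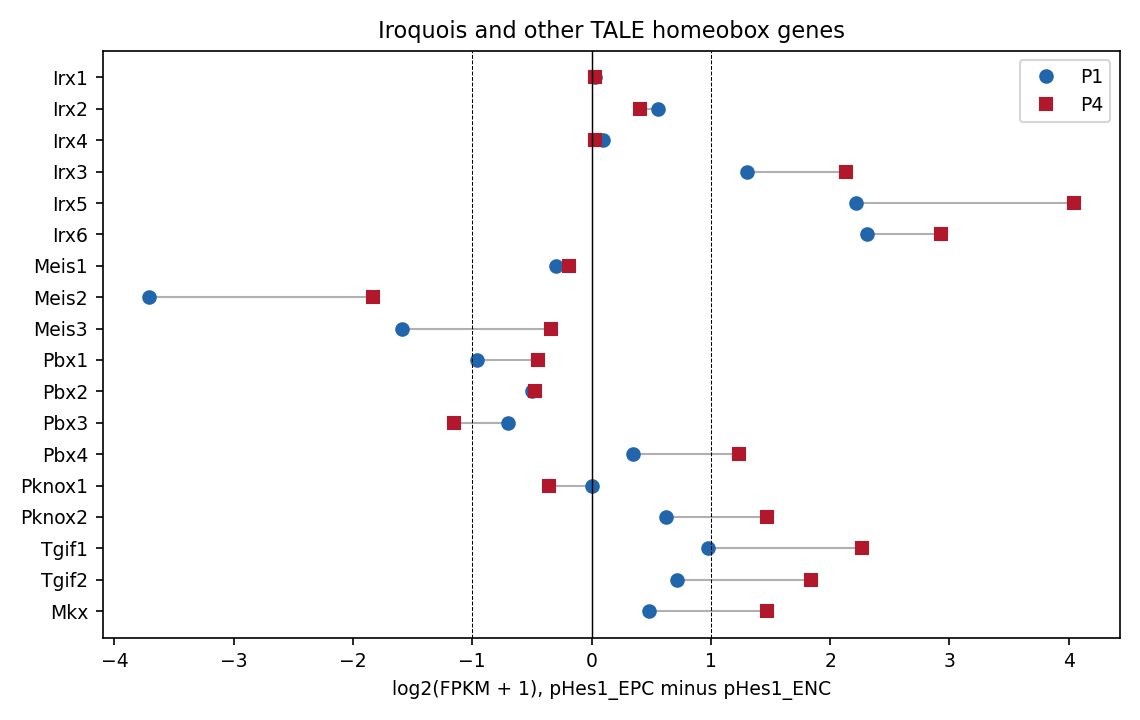
Difference between the fractions on the log2(FPKM + 1) scale, pHes1_EPC minus pHes1_ENC (horizontal axis), for the 6 Iroquois genes and 12 other TALE homeobox genes, with P1 as blue circles and P4 as red squares, and dashed lines at 2-fold. Irx3, Irx5 and Irx6 lie right of the upper dashed line at both ages, and Meis2 lies left of the lower one at -3.71 and -1.83.

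Of 6 genes of bipolar cells that have been linked to Irx5 or Irx6, none was above 2-fold in pHes1_EPC at either age. Of all genes, 6.1% at P1 and 9.85% at P4 were above. At P1, 4 of the 6 were below, and at P4 1 was, beside 6.79% and 5.42% of all genes. Vsx1 and Kcnd2, under 1 FPKM in every library, could not pass 2-fold on this scale. Rcvrn, a calcium sensor of photoreceptors and some bipolar cells, had 14.2 FPKM in pHes1_ENC and 2.26 in pHes1_EPC at P1, and 113 and 31.8 at P4. Cabp5, a calcium-binding protein of bipolar cells, had 2.52, 0.449, 4.69 and 1.92 FPKM in the same order. Vsx1, a transcription factor of cone bipolar cells, was listed at 0 in P1 pHes1_ENC and had 0.00176, 0.642 and 0.195 FPKM in the other libraries. Irx5 and Irx6 were thus at 66.2 and 10.9 FPKM in P1 pHes1_EPC, where 4 of these genes were more than 2-fold below pHes1_ENC.

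The labels were checked with marker lists. Of all genes, 6.1% were above 2-fold in pHes1_EPC and 6.79% below at P1, and 9.85% and 5.42% at P4. A marker under 1 FPKM in the libraries compared could not pass 2-fold on this scale. All 9 Müller glia and late progenitor markers were above 2-fold in pHes1_EPC at both ages, with sums of 345, 1335.81, 143 and 1978.28 FPKM in the order used above, and 5 of 6 rod and cone precursor markers at P1 and 6 of 6 at P4 were below. Markers of bipolar cells, neurons in which Irx5 and Irx6 are known, summed to 10.4, 5.47, 28.4 and 12.9 FPKM. Of 8, 0 were above and 2 below at P1, and 1 was above and 1 below at P4. Vsx1, Grm6, Trpm1, Scgn and Bhlhe23 were under 1 FPKM in both P1 libraries, and Vsx1 and Grm6 in both P4 libraries, so they could not pass there. The marker above at P4 was Trpm1, at 0.0143 FPKM in pHes1_ENC and 1.85 in pHes1_EPC. Every other bipolar marker was lower in pHes1_EPC at P4, with log2(FPKM + 1) differences from -0.08 for Prkca to -1.85 for Pcp2. Ganglion cell markers, a neuron class in which Irx4 and Irx2 are known, summed to 30.3, 20.1, 7.3 and 5.91 FPKM. Of 8, 5 in pHes1_ENC and 3 in pHes1_EPC were more than 2-fold lower at P4, beside 5.94% and 2.57% of all genes. In pHes1_ENC this also held for 6 of 9 Müller glia and late progenitor markers, 2 of 3 amacrine markers and 2 of 4 vessel markers, and in pHes1_EPC for none of them. Pigment epithelium markers stood out in P4 pHes1_EPC, at 58.9 FPKM beside 3.25 to 7.16 elsewhere. Of the 3 amacrine markers found of 5 listed, 2 were below at P1, and 1 was below and 1 above at P4. Of 4 vessel markers 1 was above at each age and 1 below at P1, and of 4 microglia markers 1 was above at P1. Red cell markers were high in pHes1_ENC, at 108 and 322 FPKM beside 0.306 and 3.79. The part of these other cells in the Iroquois values was not tested.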

How the data were processed

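RNA was sequenced in 4 libraries, P1 and P4 pHes1_ENC and pHes1_EPC, as single-end reads of 36 bases. The authors aligned the reads to mm9 with TopHat2 2.0.8b and estimated gene FPKM with Cufflinks 2.1.1 (bcl2fastq 1.8.4 is also named in the submitters' processing notes), and the deposited FPKM and their 95% intervals were used as they are. The FPKM of all lines sum to 342618 (pHes1_ENC) and 368805 (pHes1_EPC) at P1 and to 359708 and 450080 at P4. Read counts were not used here. The precision therefore rests on the intervals. For Irx5 the distance from the interval midpoint to either bound was 3.91% to 19.9% of the FPKM. In the pHes1_EPC libraries the Irx5 FPKM lay above its interval, so there this distance is not a margin around the FPKM.

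Of 23021 lines, 787 with small RNA symbols were left out, and each of 235 symbols with several lines was represented by its most abundant line, for a total of 21828 genes. All 24 member values had the status OK and each member had 1 line. Differences are log2(FPKM + 1), and the threshold was 2-fold. Ratio ranges divide the opposite interval bounds. Shared words were counted between the GENCODE transcript of each member with the longest coding sequence and the coding transcripts of all genes, and for the FPKM they would move, a read was split evenly over the members holding the word. Python 3.11.15, numpy 2.4.6, pandas 2.3.3 and matplotlib 3.10.9 were used. Only the 2-fold rule was tested on simulated data. The genes given a known fold there were more abundant in P1 pHes1_ENC than every member but Irx5. The other calculations were not simulated.

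The genes named are the 6 members, the TALE, bipolar and marker genes of listed families, the neighbours within 1 Mb, Hes1, and the 3 genes nearest in pattern to each member with at least 1 FPKM. The members and lists were chosen with earlier results of these data known. Within the lists, the genes given with values were picked after their values were seen. Alternatives were a pseudocount of 0.1, 3 other scalings, a minimum of 1 FPKM, and summed lines. Applying them to each member's change between the ages, and the calculation from shared words, were added after seeing the data.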

Additional observations from a re-analysis of the deposited data

Results flagged for a closer look

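Among 24 Iroquois, other TALE and bipolar genes, 7 had changes from P1 to P4 of opposite sign in the fractions, each of at least 0.1 on the log2(FPKM + 1) scale. With 1 library in each group these differences were not tested. Irx6 changed by 0.27 in pHes1_EPC and by -0.36 in pHes1_ENC, and the former became -0.04 after rescaling to the same total and the latter 0.02 after quantile normalization, so the signs were no longer opposite under either. Tgif1 changed by 0.73 and -0.57, Mkx by 0.82 and -0.17, Meis2 by 1.33 and -0.56, Meis3 by 0.82 and -0.43, and Bhlhe22, a bHLH factor of bipolar and amacrine cells, by 0.91 and -1.13, in the same order. Pknox1 went the other way, by -0.21 in pHes1_EPC and 0.14 in pHes1_ENC.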

How the results depend on the processing

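A difference or median was counted as moved when it changed by more than 0.5 times the width that the Cufflinks intervals give it on the log2 scale, which is wide for low genes, and a count when it changed by more than 1.5 times. By this measure 7 of 48 summary values moved and 41 did not. With a pseudocount of 0.1 the family median became 1.45 at P1, 2.56 at P4 and -1.49 between the ages in pHes1_ENC. With the minimum of 1 FPKM, which keeps 3 members, it became 2.22, 2.93 and -1.08. Rescaling to the same total changed the median between the ages in pHes1_EPC to -0.40. Of 132 values of single members, 22 moved and 2 took the other sign, both of Irx6 between the ages, at -0.04 in pHes1_EPC after rescaling and 0.02 in pHes1_ENC after quantile normalization. The number of members above 2-fold in pHes1_EPC was 3 at each age under every alternative except the pseudocount of 0.1, which added Irx2 at 1.27 and 1.75. Those Irx2 values make no allowance for reads shared with Irx5. That pseudocount also raised the number of all genes past 2-fold to 2057 higher and 2470 lower at P1 and to 3212 and 1963 at P4. Among low genes the interval limits what can be said, its bounds lying 38.4% and 26.9% of the Irx2 FPKM from its midpoint at P1. No paired analysis was possible because each group has 1 library.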
